A study of Homo sapiens with 60 samples.

Results

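The genes described here are 10 mucins measured by RNA-seq in HT29 cells, a human colorectal adenocarcinoma line, after 24 h with herbal ethanol extracts. They are the rows of the count table that map to the symbols MUC2, MUC5AC and MUC5B, which encode gel-forming secreted mucins, and MUC1, MUC3A, MUC4, MUC12, MUC13, MUC17 and MUC20, which encode membrane-bound mucins. They make up 10 of 60675 genes in the table, and all 10 were among the 16978 genes with enough counts to be tested. The extracts were those of 4 herbs and 4 formulas. Polygalae Radix was given at 15.2, 76 and 380 µg/mL and Aucklandiae Radix at 14.8, 74 and 370 µg/mL, with 2 libraries per dose. Menthae Herba, Saposhnikoviae Radix, Saengmaek-san and Guibi-tang were given at 20, 100 and 500 µg/mL with 3 libraries per dose, except that 1 outlying library of Saposhnikoviae Radix at low dose was left out, so that 2 remain there. Soyo-san had 2 libraries and Okbyeongpung-san 1 library per dose at the same 3 concentrations. The vehicle, labelled as 0.1% DMSO (the series text gives another percentage), had 3 libraries. The doses are called low, medium and high below. The high dose was capped by toxicity for the first 2 herbs, so it is not the same concentration for every extract. All groups are of this 1 cancer line, and nothing in the labels ties replicates to separate cultures: the spread behind each p-value is that between libraries and may be technical.

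Gel-forming mucins are packed into granules of secretory cells and released as large disulphide-linked polymers that swell into mucus. MUC2 is the main mucin of the healthy intestine, MUC5AC that of the stomach surface and airways, and MUC5B that of airways and salivary glands; MUC5AC is also made by some colorectal tumours and by HT29 cells. Membrane mucins span the plasma membrane, carry heavily O-glycosylated extracellular domains and form part of the glycocalyx of the brush border. In the gut MUC3A, MUC12, MUC13 and MUC17 are the typical members on absorptive cells.

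The 59 libraries used here held 18690501 to 36796414 expected counts each. Levels are given in CPM, the usual library-size scaled count, on totals adjusted by TMM, and fold changes are log2 values from edgeR. A gene was called, and is said to rise or fall, when its p-value adjusted over all 16978 genes was under 0.05. Library names carry a set number: Polygalae Radix and Aucklandiae Radix share a set, as do Menthae Herba and Saposhnikoviae Radix, Saengmaek-san and Guibi-tang, and Soyo-san and Okbyeongpung-san, while the vehicle libraries have a prefix of their own. A difference from the vehicle therefore cannot be told apart from a difference between sets, whereas high against low dose lies within a set and uses no vehicle library. The same 3 vehicle libraries stand in each comparison with the vehicle. One of these, vehicle replicate 1, was the deepest library of the table and had the highest value of the 3 vehicle libraries for 8 of the 10 mucins. Of 12 epithelial marker genes 10 stayed above 1 CPM in every library, while 6 of 8 fibroblast markers and 6 of 8 blood cell markers stayed below 1 CPM in every library. The summed CPM ranged from 7730 to 15433 for the epithelial list, from 1.55 to 3.51 for the fibroblast list and from 7.23 to 49.7 for the blood cell list, in which CD68 and CD14 made up the detected part. CD68 had 46.6 ± 1.5 CPM with Aucklandiae Radix at high dose, against 5.90 ± 0.390 CPM at low dose (SD, n = 2 each), and its part in the mucin values was not tested. At high against low dose 1 of the 12 epithelial markers rose and 8 fell with Polygalae Radix, where 29.4% of all genes were called. With Aucklandiae Radix 6 rose and 4 fell (58.7% of all genes called). With Menthae Herba 3 rose and 4 fell (23.5%), and with Guibi-tang 3 rose and 3 fell (17.9%). The part of these markers in the mucin values was likewise not tested.

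Most of the members lie in gene clusters. In GENCODE 29 on GRCh38, MUC2 (ENSG00000198788) spans chr11:1074875-1110511, MUC5AC (ENSG00000215182) chr11:1157953-1201138 and MUC5B (ENSG00000117983) chr11:1223066-1262172, all on the plus strand and next to each other. MUC3A (ENSG00000169894, chr7:100949555-100968346), MUC12 (ENSG00000205277, chr7:100969623-101018949) and MUC17 (ENSG00000169876, chr7:101020072-101058745) likewise follow each other on the plus strand. MUC20 (ENSG00000176945, chr3:195720882-195741123, plus) and MUC4 (ENSG00000145113, chr3:195746765-195812277, minus) are neighbours, MUC13 (ENSG00000173702, chr3:124905442-124953819, minus) lies elsewhere on chromosome 3, and MUC1 (ENSG00000185499, chr1:155185824-155192916, minus) on chromosome 1. Counting is uncertain for some of them. MUC20 shares 1820 exon bases with MUC20-OT1 on the same strand and has a near copy, MUC20P1. Antisense genes overlap exons of MUC3A (739 bases), MUC5B (434 bases) and MUC12 (194 bases). On the same strand RN7SKP54 shares 269 exon bases with MUC17 and AL713999.1 shares 48 with MUC1. The strand setting of the counting is not given in the sources used here.

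Promoter windows are shown for MUC2, which had the largest fall of the gel-forming genes, for MUC13, which fell at high dose of every tested extract, and for MUC17, which rose at high dose of 3 extracts. Each is the 300 bases from 250 before to 50 after a gene start in RefSeq on GRCh38.p14, printed 5′ to 3′ along the gene. RefSeq windows were at hand for 7 of the 10 members, and those of MUC5AC, MUC5B and MUC20 were not used here. Capitals mark matches on either strand to 7 short motifs. These were TTTAT (the core bound by CDX factors), GATAA (GATA factors), TGTTTA (FOXA factors), GGGCGG (SP and KLF factors), TGACNNNGC (antioxidant response element), GCGTG (AHR) and the TATA box with the letters TATAAA, which overlaps TTTAT on the other strand. The windows lie at chr11:1074624-1074923 (plus strand, MUC2), chr3:124934702-124935001 (minus strand, MUC13) and chr7:101019831-101020130 (plus strand, MUC17).
MUC2: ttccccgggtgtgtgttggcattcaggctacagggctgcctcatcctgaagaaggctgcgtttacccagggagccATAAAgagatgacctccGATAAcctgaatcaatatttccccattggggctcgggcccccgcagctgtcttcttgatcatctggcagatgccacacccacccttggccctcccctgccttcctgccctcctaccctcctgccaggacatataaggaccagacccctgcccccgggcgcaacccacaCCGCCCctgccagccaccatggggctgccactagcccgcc
MUC13: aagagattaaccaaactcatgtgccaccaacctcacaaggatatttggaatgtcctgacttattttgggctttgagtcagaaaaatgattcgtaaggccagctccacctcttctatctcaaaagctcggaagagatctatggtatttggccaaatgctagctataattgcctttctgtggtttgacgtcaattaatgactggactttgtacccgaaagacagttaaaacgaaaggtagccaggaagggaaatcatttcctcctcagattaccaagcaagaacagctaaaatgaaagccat
MUC17: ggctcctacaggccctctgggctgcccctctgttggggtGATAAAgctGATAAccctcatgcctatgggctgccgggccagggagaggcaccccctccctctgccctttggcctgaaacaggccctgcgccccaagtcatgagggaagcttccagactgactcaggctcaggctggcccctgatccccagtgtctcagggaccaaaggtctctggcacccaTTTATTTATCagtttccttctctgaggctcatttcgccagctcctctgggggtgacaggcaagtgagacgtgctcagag
The MUC17 window held 3 matches to the CDX motif and 3 to the GATA motif, the MUC2 window 1 match each to the CDX, GATA and SP motifs, and the MUC13 window none of the 7. In the MUC17 window each CDX match shares letters with a GATA match or with another CDX match. Among 35116 promoter windows of the same length, the CDX motif was present in 34.9%, the GATA motif in 22.7%, the SP motif in 45.0% and the FOXA motif in 12.3%. The TATA box was present in 11.5%, the antioxidant response element in 13.3% and the AHR motif in 36.5%. Such matches describe the letters of the windows and are not shown to be sites.

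Per length, MUC13 was the most abundant mucin mRNA of vehicle-treated cells. On a TPM-like scale, counts per kilobase of exon brought to the same sum in every library, its level was 84.7 ± 2.90 in the vehicle (SD, n = 3). It was followed by MUC20 at 43.2 ± 1.51 and MUC5AC at 41.8 ± 9.92, which did not differ beyond their SDs. MUC3A at 7.76 ± 1.24 and MUC2 at 5.07 ± 1.61 came next and lay within the sum of their SDs. Lower levels were found for MUC12 (1.71 ± 0.260), MUC17 (1.299 ± 0.142), MUC1 (0.764 ± 0.167), MUC5B (0.194 ± 0.103) and MUC4 (0.0590 ± 0.00356). MUC4, MUC5B and MUC1 thus rest on few reads: over the 59 libraries MUC4 had 3 to 20 counts, MUC5B 10 to 73 and MUC1 14 to 57, against 1909 to 11676 for MUC5AC. In CPM, which does not correct for length, MUC5AC led with 253 ± 64.9 in the vehicle.

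**Figure D1:**
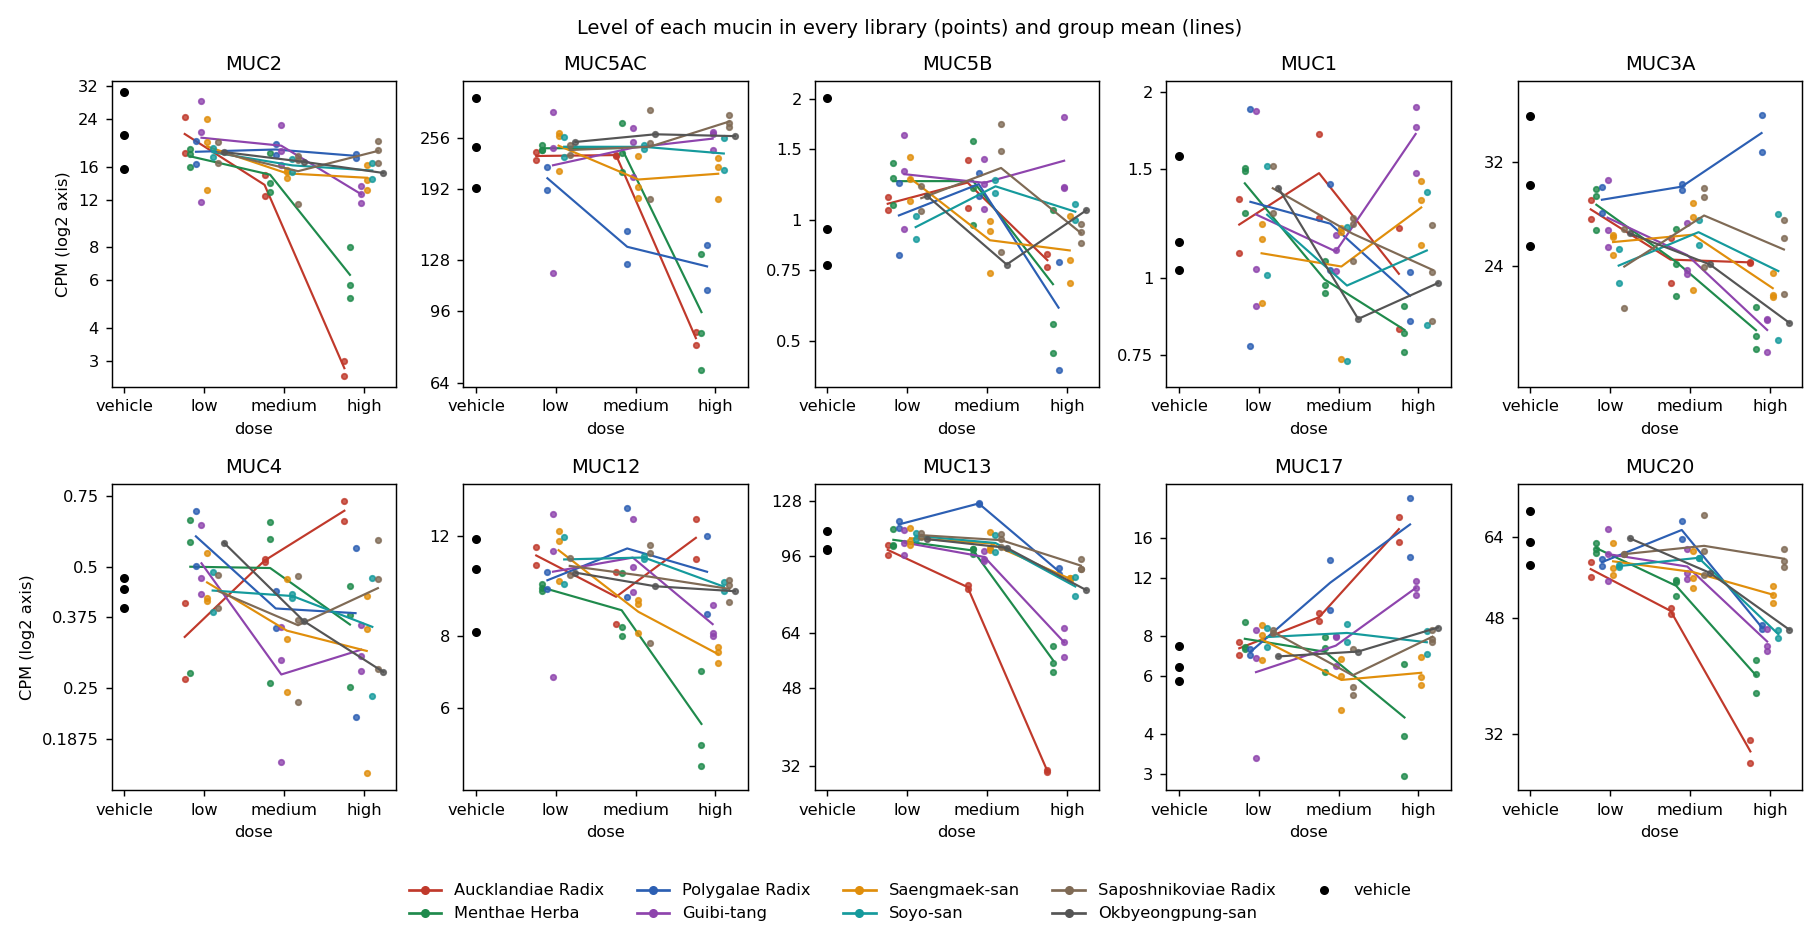
CPM of each mucin on a log2 axis, with points for libraries and lines joining group means over vehicle, low, medium and high dose of 8 extracts. MUC2, MUC5AC, MUC13 and MUC20 drop at the high dose of Aucklandiae Radix (MUC2 to 2.82 CPM, MUC13 to 31.1 CPM), while MUC17 climbs to 16.98 CPM there and to 17.5 CPM with Polygalae Radix.

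At high dose most called mucins were lower than in the vehicle, and the extracts differed in which. With Menthae Herba 8 of the 10 mucins were called, all of them lower, where 28.2% of all genes were called in either direction. Aucklandiae Radix had 6 called, 5 lower and 1 higher (62% of all genes called), Polygalae Radix 5, 4 lower and 1 higher (36.5%), and Guibi-tang 5, 4 lower and 1 higher (29.4%). Saengmaek-san had 4 called (12%), Soyo-san 3 (17.7%) and Saposhnikoviae Radix 1 (10.2%), all of them lower. For Aucklandiae Radix the share of mucins called was close to the share of all genes called. Against the low dose of the same extract, Menthae Herba had 9 of the 10 called, all lower (23.5% of all genes called). With any 1 library left out, 6 to 8 of the 10 were called. Aucklandiae Radix had 6 called, 4 lower and 2 higher (58.7%), Polygalae Radix 4, 3 lower and 1 higher (29.4%), and Guibi-tang 5, 4 lower and 1 higher (17.9%). Soyo-san had 2 called (2.49%) and Saengmaek-san 1 (0.854%), all lower, and Saposhnikoviae Radix 0 (0.289%). For the last, 1 mucin, MUC13, had an unadjusted p under 0.05 in edgeR, and DESeq2 called 1.

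**Figure D2:**
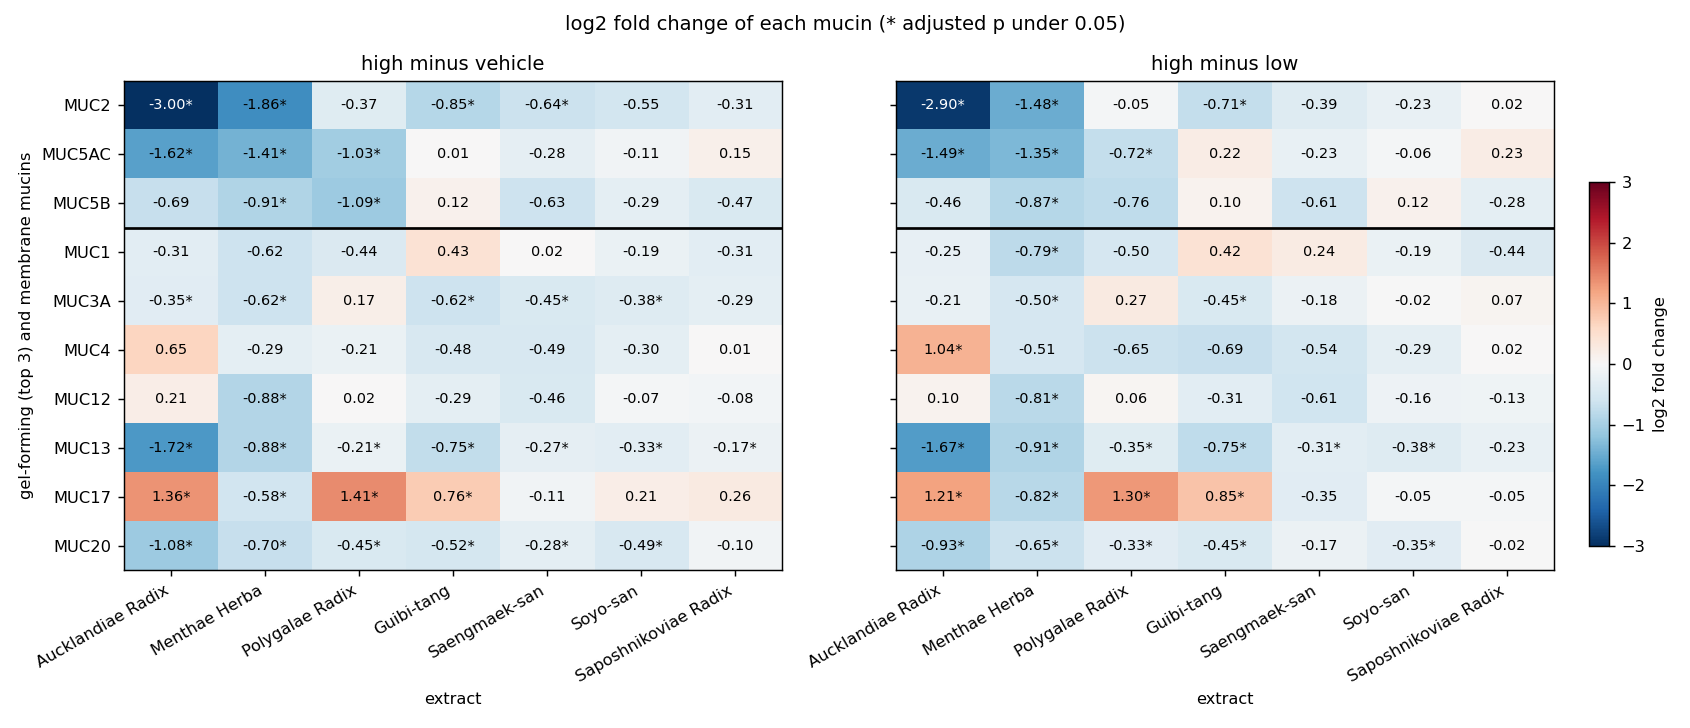
Log2 fold change of each mucin (rows, gel-forming above the line) for 7 extracts (columns), high dose against vehicle at left and high against low dose at right, with an asterisk at adjusted p under 0.05. Blue cells, lower at high dose, prevail, and MUC17 is red for Aucklandiae Radix, Polygalae Radix and Guibi-tang, with log2 values of 1.36, 1.41 and 0.76 against the vehicle.

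Among the gel-forming mucins, MUC2 moved most. It stood at 2.65 and 2.99 CPM with Aucklandiae Radix at high dose, against 17.9 and 24.4 CPM at low dose and 15.6, 21.02 and 30.4 CPM in the vehicle. Both high-dose libraries lay far below all of the others. The fall was 7.98-fold against the vehicle (log2 -2.996, SE 0.31, adjusted p = 2.60e-11) and 7.45-fold against the low dose (log2 -2.90, SE 0.33, adjusted p = 4.28e-10). Menthae Herba at high dose gave 5.15, 5.77 and 7.98 CPM of MUC2, against 16.0, 17.9 and 18.5 CPM at low dose, again without overlap. That fall measured 3.62-fold against the vehicle (log2 -1.86, SE 0.23, adjusted p = 2.87e-08) and 2.79-fold against the low dose (log2 -1.48, SE 0.24, adjusted p = 6.56e-06).

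Guibi-tang had a smaller MUC2 difference. Its high-dose libraries held 11.7, 12.6 and 13.6 CPM, against 11.8, 21.6 and 28.1 CPM at low dose, where 1 library lay within the high-dose range. MUC2 fell by 0.85 on the log2 scale against the vehicle (SE 0.21, adjusted p = 0.00228) and by 0.71 against the low dose (SE 0.22, adjusted p = 0.0169). The first call was lost without vehicle replicate 1 (log2 -0.54, adjusted p = 0.0686). The second was lost without Guibi-tang low replicate 1 (log2 -0.41, adjusted p = 0.245) and, with little change in size, without 3 other libraries. Saengmaek-san at high dose had a log2 difference in MUC2 of -0.64 from the vehicle (adjusted p = 0.0381), which was also lost without vehicle replicate 1 (log2 -0.34, adjusted p = 0.367). Against their own low dose, the MUC2 log2 differences were -0.39 for Saengmaek-san, -0.23 for Soyo-san, -0.05 for Polygalae Radix and 0.02 for Saposhnikoviae Radix, none of them called. Over the 25 groups the vehicle had the highest mean of MUC2, 22.3 CPM, against a median of 17.5 CPM over group means, and 7 of 7 low-dose groups had a log2 difference from it below zero without a call.

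MUC5AC fell with 3 extracts. In Aucklandiae Radix at high dose it stood at 79.2 and 85.5 CPM, against 226 and 237 CPM at low dose and 193, 243 and 322 CPM in the vehicle. High-dose Menthae Herba gave 68.8, 84.7 and 133 CPM, against 239, 240 and 246 CPM at low dose. High-dose Polygalae Radix gave 108 and 139 CPM, against 191 and 217 CPM at low dose. In each of the 3 the high-dose libraries lay below all low-dose and vehicle libraries. Against the vehicle the falls were 3.08-fold for Aucklandiae Radix (log2 -1.62, SE 0.24, adjusted p = 9.90e-08), 2.66-fold for Menthae Herba (log2 -1.41, SE 0.20, adjusted p = 6.18e-07) and 2.05-fold for Polygalae Radix (log2 -1.03, SE 0.23, adjusted p = 0.000341). Against the low dose the log2 values were -1.49, -1.35 and -0.72 in the same order of extracts, with adjusted p of 1.90e-06, 1.93e-06 and 0.0231. The Polygalae Radix call against the low dose was lost without Polygalae Radix high replicate 2 (log2 -0.55, adjusted p = 0.214) or low replicate 2 (log2 -0.62, adjusted p = 0.142).

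Guibi-tang at high dose held 239, 263 and 265 CPM of MUC5AC, against 119, 243 and 297 CPM at low dose. Its log2 difference was 0.01 from the vehicle (SE 0.20) and 0.22 from the low dose (SE 0.20), neither called. Saposhnikoviae Radix at high dose had the highest group mean of MUC5AC, 282 CPM, and a log2 difference of 0.15 from the vehicle (SE 0.20), also without a call.

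The 2 abundant gel-forming mucins therefore shifted relative to each other. In the vehicle MUC5AC had 10.6 to 12.4 counts per MUC2 count. With Aucklandiae Radix at high dose this ratio was 26.5 to 32.3, against 9.70 to 12.6 at low dose. With Guibi-tang it was 19.5 to 20.9 at high dose, against 10.1 to 11.2 at low dose. Polygalae Radix went the other way, with 6.28 to 7.80 at high dose, against 10.9 to 11.7 at low dose. These ranges did not overlap within an extract; the ratio itself was not tested. Menthae Herba had 11.9 to 16.6 at high dose, against 13.3 to 15.0 at low dose, which overlapped. Of the 24 extract-by-dose groups 15 lay wholly above the vehicle range and 2, Polygalae Radix at medium and high dose, wholly below it. Among the 15 were the Okbyeongpung-san groups, where 1 library stands for each dose (13.8, 15.7 and 17.1 from low to high). As the vehicle libraries have a prefix of their own, these counts cannot be told apart from a difference between sets. Since the ratio is taken within a library, it does not depend on how libraries were scaled.

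**Figure D3:**
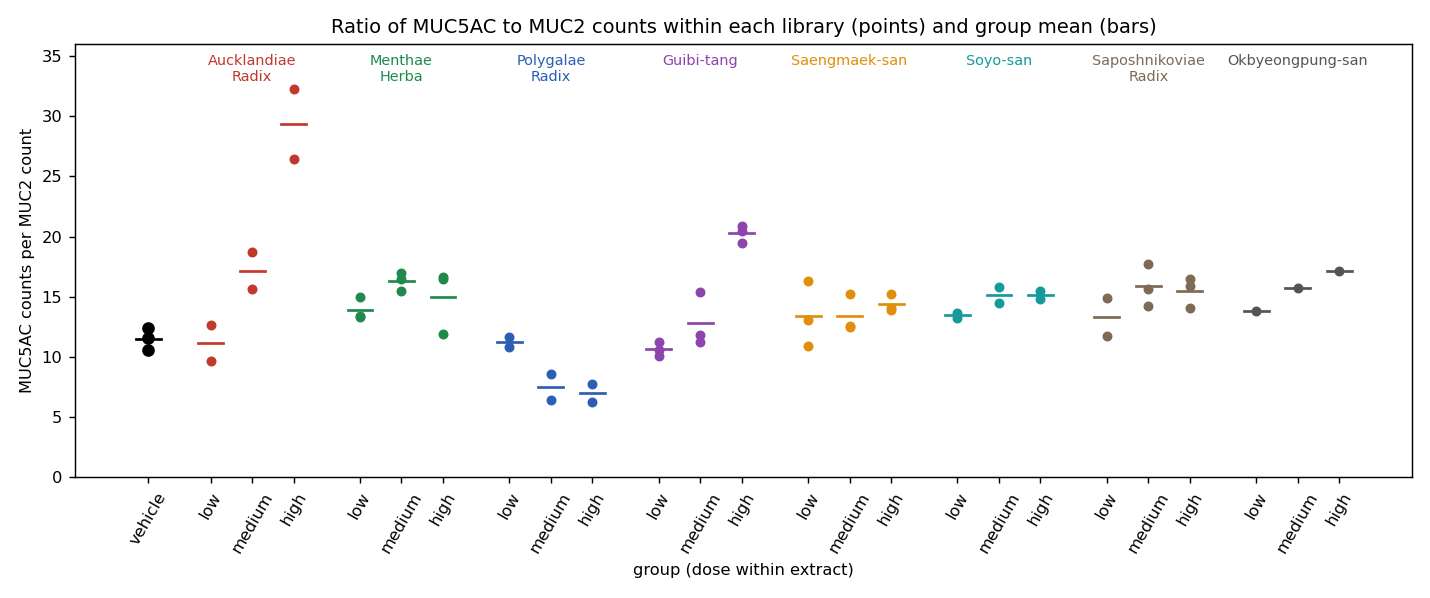
MUC5AC counts per MUC2 count in each library (points) with group means (bars), for the vehicle and then 8 extracts from low to high dose. High-dose Aucklandiae Radix (26.5 to 32.3) and Guibi-tang (19.5 to 20.9) are among 15 of 24 groups that lie wholly above the vehicle (10.6 to 12.4), and high-dose Polygalae Radix (6.28 to 7.80) lies below it. The Okbyeongpung-san groups, also among the 15, hold 1 library each.

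MUC5B was scarce, with group means from 0.606 to 1.40 CPM. It had 0.425 and 0.788 CPM with Polygalae Radix at high dose, against 0.774, 0.950 and 2.01 CPM in the vehicle. High-dose Menthae Herba had 0.468, 0.553 and 1.06 CPM, against 1.09, 1.27 and 1.39 CPM at low dose. Both groups overlapped with the vehicle. The called log2 differences from the vehicle were -1.09 (SE 0.35, adjusted p = 0.0128) for Polygalae Radix and -0.91 (SE 0.29, adjusted p = 0.0155) for Menthae Herba. Without vehicle replicate 1 they were -0.52 and -0.33 and were no longer called, and without Polygalae Radix high replicate 3 the first was -0.69 and not called. Menthae Herba against its low dose gave -0.87 (SE 0.30, adjusted p = 0.0304), a call that was lost on leaving out any 1 of 4 libraries, with a value of -0.65 without Menthae Herba high replicate 3.

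Among the membrane mucins, MUC13 was lower at the high dose of all 7 tested extracts. With Aucklandiae Radix it had 31.0 and 31.2 CPM at high dose, against 96.5 and 102 CPM at low dose and 98.8, 99.4 and 109 CPM in the vehicle. Menthae Herba gave 52.2, 54.7 and 60.05 CPM at high dose, against 101, 102 and 110 CPM at low dose, and Guibi-tang 56.5, 61.0 and 65.7 CPM, against 96.4, 103 and 110 CPM. The groups did not overlap in any of these. Against the vehicle MUC13 fell 3.29-fold with Aucklandiae Radix (log2 -1.72, SE 0.06, adjusted p = 6.95e-26), 1.84-fold with Menthae Herba (log2 -0.88, SE 0.05, adjusted p = 5.21e-17) and 1.68-fold with Guibi-tang (log2 -0.75, SE 0.05, adjusted p = 7.21e-15). The falls were smaller with Soyo-san (log2 -0.33), Saengmaek-san (-0.27), Polygalae Radix (-0.21) and Saposhnikoviae Radix (-0.17). Against the low dose MUC13 fell in 6 of 7 extracts, by 1.67 (Aucklandiae Radix), 0.91 (Menthae Herba), 0.75 (Guibi-tang), 0.38 (Soyo-san), 0.35 (Polygalae Radix) and 0.31 (Saengmaek-san) on the log2 scale. For Saposhnikoviae Radix it had 89.7, 89.7 and 94.3 CPM at high dose, against 106 and 108 CPM at low dose, with a log2 value of -0.23 (adjusted p = 0.0765).

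The small MUC13 falls were the least firm. With the outlying library kept, the falls against the vehicle with Soyo-san, Saengmaek-san, Polygalae Radix and Saposhnikoviae Radix were not called (log2 -0.32 to -0.16). Those with Soyo-san, Saengmaek-san and Polygalae Radix against the low dose were not called then either. Fits on the 2 groups alone lost the falls against the vehicle with Soyo-san, Polygalae Radix and Saposhnikoviae Radix. That of Saposhnikoviae Radix against the vehicle was lost without vehicle replicate 3 (log2 -0.12) and without either of 2 of its own libraries, and that of Polygalae Radix against the vehicle without its high replicate 2 (log2 -0.18). At medium dose Polygalae Radix ran in the other direction, with 126 and 127 CPM of MUC13, above all vehicle libraries (log2 0.30, SE 0.06, adjusted p = 0.000231), a call that was lost with the outlying library kept (log2 0.30, adjusted p = 0.892) and in a fit on the 2 groups alone. The high dose of that extract lay below both the low and the medium dose. With 1 library per dose, Okbyeongpung-san had 105, 100.2 and 80.2 CPM of MUC13 from low to high dose and gave no test.

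MUC20 followed a like order. It had 28.9 and 31.2 CPM with Aucklandiae Radix at high dose, against 55.5 and 58.6 CPM at low dose and 57.9, 62.8 and 69.9 CPM in the vehicle, with no overlap. Against the vehicle MUC20 fell in 6 of 7 extracts, 2.12-fold with Aucklandiae Radix (log2 -1.08, SE 0.07, adjusted p = 1.11e-16) and 1.62-fold with Menthae Herba (log2 -0.70, SE 0.06, adjusted p = 1.65e-11). The other 4 log2 values were -0.52 for Guibi-tang, -0.49 for Soyo-san, -0.45 for Polygalae Radix and -0.28 for Saengmaek-san. Saposhnikoviae Radix was at -0.10 without a call. Against the low dose it fell in 5 of 7, by 0.93, 0.65, 0.45, 0.35 and 0.33 for Aucklandiae Radix, Menthae Herba, Guibi-tang, Soyo-san and Polygalae Radix. The Soyo-san call against the low dose was lost on leaving out any 1 of its 4 libraries, at values of -0.36 to -0.32. The near copy MUC20P1 had 11.1 ± 0.162 CPM at high dose of Aucklandiae Radix, against 27.0 ± 2.33 CPM in the vehicle, and the overlapping MUC20-OT1 14.7 ± 0.335 CPM, against 16.9 ± 0.753 CPM (SD, n = 2 and 3). With Menthae Herba and Guibi-tang at high dose MUC20P1 had 15.7 ± 0.595 and 18.1 ± 0.908 CPM (SD, n = 3 each). Reads of MUC20 cannot be told apart from these with certainty.

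MUC3A, the neighbour of MUC12 and MUC17, fell with 5 of 7 extracts at high dose against the vehicle and with 2 of 7 against the low dose. It had 19.0, 19.7 and 21.4 CPM with Menthae Herba at high dose, against 26.5, 29.1 and 29.7 CPM at low dose and 25.4, 30.01 and 36.4 CPM in the vehicle. Guibi-tang gave 18.9, 20.6 and 20.7 CPM at high dose, against 25.3, 26.5 and 30.5 CPM at low dose. In both the high-dose libraries lay below all low-dose and vehicle libraries. The falls against the vehicle were 0.62 on the log2 scale for each (SE 0.11, adjusted p = 1.75e-05 for Menthae Herba and 2.90e-05 for Guibi-tang), and those against the low dose were 0.50 and 0.45. Saengmaek-san (log2 -0.45), Soyo-san (-0.38) and Aucklandiae Radix (-0.35) were also called against the vehicle at high dose but not against their low dose, where the values were -0.18, -0.02 and -0.21. All 3 calls against the vehicle were lost without vehicle replicate 1 (log2 -0.30, -0.23 and -0.20), and that of Soyo-san also without its high replicate 2 (log2 -0.14). Polygalae Radix had the highest group mean of MUC3A, 34.7 CPM at high dose, with 33.0 and 36.5 CPM, overlapping the vehicle, and no call.

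MUC17 rose at high dose of 3 extracts. Polygalae Radix at high dose had 13.9 and 21.2 CPM, against 6.97 and 7.28 CPM at low dose, and Aucklandiae Radix had 15.5 and 18.5 CPM, against 6.99 and 7.63 CPM. The 3 Guibi-tang libraries held 10.6, 11.2 and 11.8 CPM at high dose, against 3.37, 6.81 and 8.35 CPM at low dose. The vehicle libraries were at 5.82, 6.42 and 7.42 CPM. All high-dose libraries of these 3 extracts lay above their low-dose libraries and above the vehicle. The rise against the vehicle was 2.66-fold with Polygalae Radix (log2 1.41, SE 0.20, adjusted p = 1.86e-07), 2.56-fold with Aucklandiae Radix (log2 1.36, SE 0.20, adjusted p = 1.00e-07) and 1.70-fold with Guibi-tang (log2 0.76, SE 0.19, adjusted p = 0.00218). Against the low dose the log2 values were 1.305, 1.21 and 0.85 in that order, with adjusted p of 1.51e-05, 9.14e-06 and 0.00132. Each was still called with any 1 library left out, the Guibi-tang value against the low dose ranging from 0.56 to 1.12. With the outlying library kept, the Guibi-tang calls against the vehicle and the low dose were lost. So was the Polygalae Radix call against the low dose.

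MUC17 was already higher than in the vehicle with Polygalae Radix at medium dose, with 9.58 and 13.7 CPM (log2 0.81, SE 0.21, adjusted p = 0.00809). That call was lost without Polygalae Radix medium replicate 3 (log2 0.55). Menthae Herba went the other way. It had 2.96, 3.94 and 6.56 CPM of MUC17 at high dose, against 7.27, 7.37 and 8.82 CPM at low dose, without overlap, and fell by 0.82 on the log2 scale (SE 0.21, adjusted p = 0.00314). That call was lost without Menthae Herba high replicate 3 (log2 -0.60, adjusted p = 0.0571). Against the vehicle the value was -0.58 (adjusted p = 0.0365), and it was lost without any 1 of 4 libraries. For Saengmaek-san, Soyo-san and Saposhnikoviae Radix at high dose the MUC17 log2 differences from the vehicle were -0.11, 0.21 and 0.26, none called.

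MUC12 was called with Menthae Herba alone, and the difference of that extract from its set mate Saposhnikoviae Radix at high dose was called as well (log2 -0.80, SE 0.18, adjusted p = 0.00120). It had 4.73, 5.15 and 6.97 CPM in Menthae Herba at high dose, against 9.63, 9.72 and 9.91 CPM at low dose and 8.16, 10.5 and 11.9 CPM in the vehicle. The fall was 1.84-fold against the vehicle (log2 -0.88, SE 0.17, adjusted p = 9.80e-05) and 1.75-fold against the low dose (log2 -0.81, SE 0.18, adjusted p = 0.000527). The next largest values were those of Saengmaek-san, -0.46 against the vehicle (adjusted p = 0.0686) and -0.61 against the low dose (adjusted p = 0.0773).

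MUC1, an epithelial membrane mucin with a signalling cytoplasmic tail, and MUC4, a large membrane mucin that binds ERBB2, gave few calls at their low counts. MUC1 had 0.757, 0.815 and 0.898 CPM with Menthae Herba at high dose, against 1.27, 1.49 and 1.502 CPM at low dose (log2 -0.79, SE 0.26, adjusted p = 0.0251). That call was lost on leaving out any 1 of 4 libraries, at values near the full one, the smallest being -0.73. Guibi-tang at high dose had the highest group mean of MUC1, 1.71 CPM, against 1.25 CPM in the vehicle, without a call (log2 0.43, SE 0.24). MUC4 had 0.651 and 0.730 CPM with Aucklandiae Radix at high dose, against 0.264 and 0.407 CPM at low dose (log2 1.04, SE 0.43, adjusted p = 0.0343). It was the single called difference of MUC4 and was lost without any 1 of 3 of the 4 libraries (log2 0.77 without Aucklandiae Radix low replicate 3), without a filter on low counts and with DESeq2.

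Set beside each other, the gel-forming class had 2 falls and no rise for Aucklandiae Radix against its low dose, with a median log2 value of -1.49 over its 3 genes. The membrane class there had 2 falls, 2 rises and 3 genes without a call, with a median of -0.21 over its 7 genes. In that comparison 58.7% of all genes were called. The rises were those of MUC17 and of the scarce MUC4, whose call was lost without any 1 of 3 of the 4 libraries. For Menthae Herba (23.5% of all genes called) the falls were 3 of 3 (median -1.35) and 6 of 7 (median -0.79). Among these, the MUC5B and MUC1 calls were each lost without any 1 of 4 libraries, and that of MUC17 without 1 library. Polygalae Radix (29.4% of all genes called) had 1 of 3 gel-forming genes lower (median -0.72). Of its 7 membrane genes 2 were lower and 1 higher (median -0.33). Its gel-forming call, that of MUC5AC, was lost without either of 2 libraries. Guibi-tang (17.9% of all genes called) had a median of 0.10 for the gel-forming class, 1 of 3 lower. Its membrane class had a median of -0.45, 3 lower and 1 higher of 7. The 0.10 was the value of the scarce MUC5B, without a call. The MUC2 call of Guibi-tang was lost without any 1 of 4 libraries. The gel-forming median was also the higher with Soyo-san (-0.06, against -0.19) and Saposhnikoviae Radix (0.02, against -0.05). With Saengmaek-san it was the lower (-0.39, against -0.31). For Aucklandiae Radix, Menthae Herba, Polygalae Radix and Guibi-tang the median over all genes tested was between -0.02 and 0.00. In summed CPM, gel-forming mucins were at 86.0 ± 4.20 with Aucklandiae Radix at high dose, against 254 ± 12.4 at low dose, and membrane mucins at 116 ± 4.97, against 204 ± 0.851 (SD, n = 2 each). With Guibi-tang the gel-forming sum was 269 ± 15.2 at high dose, against 241 ± 99.4 at low dose, which overlapped. Its membrane sum was 147 ± 5.77, against 209 ± 20.7 (SD, n = 3 each). MUC17 made up 14.6% of the membrane sum with Aucklandiae Radix at high dose, 8.75% with Polygalae Radix and 7.63% with Guibi-tang, against 3.04% in the vehicle.

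At medium dose fewer mucins differed from the vehicle. With Polygalae Radix MUC5AC was lower (log2 -0.87) and MUC13 and MUC17 were higher, 3 calls where 10.2% of all genes were called. Like all differences from the vehicle, these cannot be told apart from differences between sets. The MUC5AC call was lost without vehicle replicate 1 (log2 -0.66) and without Polygalae Radix medium replicate 2 (log2 -0.74). With Aucklandiae Radix MUC2 (log2 -0.73), MUC13 (-0.33) and MUC20 (-0.37) were lower, 3 calls at 13.6%. The MUC2 call there was lost without vehicle replicate 1 (log2 -0.43) and without either medium-dose library (log2 -0.87 and -0.60). With Menthae Herba MUC3A (log2 -0.34) and MUC20 (-0.24) were lower, 2 calls at 10.1%, and with Guibi-tang MUC3A (-0.32), 1 call at 11%. The log2 difference of MUC3A from the vehicle was below zero in 7 of 7 extracts at medium dose, and likewise in 7 of 7 at low dose. Both MUC3A calls were lost without vehicle replicate 1 (log2 -0.19 and -0.17), and the MUC20 call without vehicle replicate 3 (log2 -0.17). No mucin was called for Saposhnikoviae Radix (3.69%), Saengmaek-san (11.4%) or Soyo-san (8.55%) at this dose by edgeR, where 1, 3 and 1 had an unadjusted p under 0.05, or by DESeq2.

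At low dose MUC3A alone was called, with Saposhnikoviae Radix (log2 -0.36, adjusted p = 0.0437, 11.5% of all genes called) and Soyo-san (log2 -0.36, adjusted p = 0.0458, 9.8%). Neither held without vehicle replicate 1, the values then being -0.21 each, and that of Saposhnikoviae Radix was -0.21 without its low replicate 1 too. For Polygalae Radix (9.98%), Aucklandiae Radix (4.97%), Menthae Herba (9.45%), Saengmaek-san (18%) and Guibi-tang (6.05%) no mucin was called by edgeR or DESeq2, with 1, 1, 0, 1 and 0 at an unadjusted p under 0.05 in the same order. Over the 18 low-dose libraries of the 7 tested extracts, MUC13 ranged from 96.4 to 115 CPM and MUC20 from 54.7 to 65.6 CPM, against 98.8 to 109 and 57.9 to 69.9 CPM in the vehicle.

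Extracts of one library set were also compared directly at high dose. Between Polygalae Radix at 380 µg/mL and Aucklandiae Radix at 370 µg/mL, 5 of 10 mucins were higher with Polygalae Radix, where 58.3% of all genes were called. MUC2 was 6.19-fold higher (log2 2.63, SE 0.34, adjusted p = 9.73e-09), with 17.2 and 17.9 CPM, against 2.65 and 2.99 CPM, and MUC13 2.85-fold (log2 1.51), with MUC20 (0.63), MUC5AC (0.59) and MUC3A (0.52) following. MUC17, which rose with both, gave a log2 difference of 0.06 without a call. The MUC5AC call was lost with DESeq2 and with its size factors, and without any 1 of 3 libraries (log2 0.40 without Polygalae Radix high replicate 3).

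Menthae Herba and Saposhnikoviae Radix, both at 500 µg/mL, differed in 7 mucins, all lower with Menthae Herba, where 16.1% of all genes were called. MUC5AC was 2.96-fold lower (log2 -1.56, SE 0.20, adjusted p = 2.10e-07) and MUC2 2.93-fold lower (log2 -1.55, SE 0.24, adjusted p = 6.41e-06). The other 5 were MUC17 (log2 -0.84), MUC12 (-0.80), MUC13 (-0.71), MUC20 (-0.59) and MUC3A (-0.33), of which MUC17 was lost without Menthae Herba high replicate 3 (log2 -0.61) and MUC3A without any 1 of 4 libraries (log2 -0.32 to -0.27). Guibi-tang and Saengmaek-san, also at 500 µg/mL, differed in 3 (12.7% of all genes called). MUC17 was higher with Guibi-tang, at 10.6, 11.2 and 11.8 CPM, against 5.64, 5.95 and 6.85 CPM (log2 0.87, SE 0.20, adjusted p = 0.00219). MUC13 was lower, at 56.5, 61.0 and 65.7 CPM, against 84.8, 85.3 and 85.4 CPM (log2 -0.48, SE 0.05, adjusted p = 4.83e-09), as was MUC20 (log2 -0.24, adjusted p = 0.00985), whose call was lost without either of 2 libraries (log2 -0.22 each).

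Genes that act on mucins were taken from lists of the pathway and read against the low dose. In these comparisons 58.7% of all genes were called with Aucklandiae Radix, 50.34% of them higher, 29.4% with Polygalae Radix, 23.5% with Menthae Herba and 17.9% with Guibi-tang. Of 31 tested genes of mucin O-glycosylation, 15 rose and 10 fell with Aucklandiae Radix. Among them ST3GAL1, which caps O-glycans with sialic acid, had 1092 ± 57.3 CPM at high dose, against 430 ± 3.14 CPM at low dose (log2 1.35, SE 0.05). FUT3, a fucosyltransferase of Lewis antigens, rose by a log2 value of 2.11 (SE 0.17), while CHST4, a sulfotransferase, fell by 3.20 (SE 0.32) and ST6GALNAC1, which makes sialyl-Tn, fell by 1.501 (SE 0.25). Menthae Herba raised 4 and lowered 13 of the 31, Guibi-tang raised 7 and lowered 5, and Polygalae Radix raised 4 and lowered 6. ST6GALNAC1 fell with Menthae Herba (log2 -1.13) and Guibi-tang (-0.71) too. The median log2 value of the list lay between -0.15 and 0.13 in these 4 comparisons.

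Of 19 tested genes for mucus partners and granule release, 10 fell and 3 rose with Aucklandiae Radix, 12 fell with Menthae Herba, 10 with Guibi-tang, and 7 fell and 1 rose with Polygalae Radix, against the shares of all genes of 58.7%, 23.5%, 17.9% and 29.4% given above. FCGBP, a mucus protein bound to MUC2, had 3.05 ± 0.0770 CPM with Aucklandiae Radix at high dose, against 17.9 ± 0.130 CPM at low dose (log2 -2.55, SE 0.20). With Menthae Herba it had 3.92 ± 0.164 CPM, against 17.9 ± 0.239 CPM (log2 -2.19, SE 0.15). CFTR, the chloride and bicarbonate channel needed for mucin unfolding, fell by 3.60 with Aucklandiae Radix (SE 0.11), by 0.82 with Menthae Herba (SE 0.07) and by 0.69 with Polygalae Radix (SE 0.09).

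Of 25 tested regulators of mucin genes or of the secretory lineage, 19 fell and 3 rose with Aucklandiae Radix. Guibi-tang lowered 11 and raised 2, Menthae Herba lowered 8 and raised 2, and Polygalae Radix lowered 4 and raised 5, beside the same shares of all genes. ATOH1, the factor that commits intestinal cells to the secretory lineage, had 0.0981 ± 0.0161 CPM with Aucklandiae Radix at high dose, against 3.94 ± 0.459 CPM at low dose (log2 -5.25, SE 0.33). It fell by 2.31 with Guibi-tang, 1.89 with Menthae Herba, 0.80 with Polygalae Radix and 0.65 with Soyo-san. KLF4, a factor of goblet and surface cells, rose with Aucklandiae Radix (log2 1.79, SE 0.10), Polygalae Radix (0.97, SE 0.11) and Menthae Herba (0.28, SE 0.09). SPDEF, a goblet cell factor downstream of ATOH1, rose with Aucklandiae Radix (log2 0.47, SE 0.08), at 42.1 ± 0.108 CPM, against 30.5 ± 0.242 CPM. Saengmaek-san and Soyo-san had no gene higher in any of the 3 lists. In the order of the lists above, 1, 2 and 1 were lower with Saengmaek-san (0.854% of all genes called) and 3, 5 and 2 with Soyo-san (2.49%). With Saposhnikoviae Radix no gene of the 3 lists was called (0.289%).

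**Figure D4:**
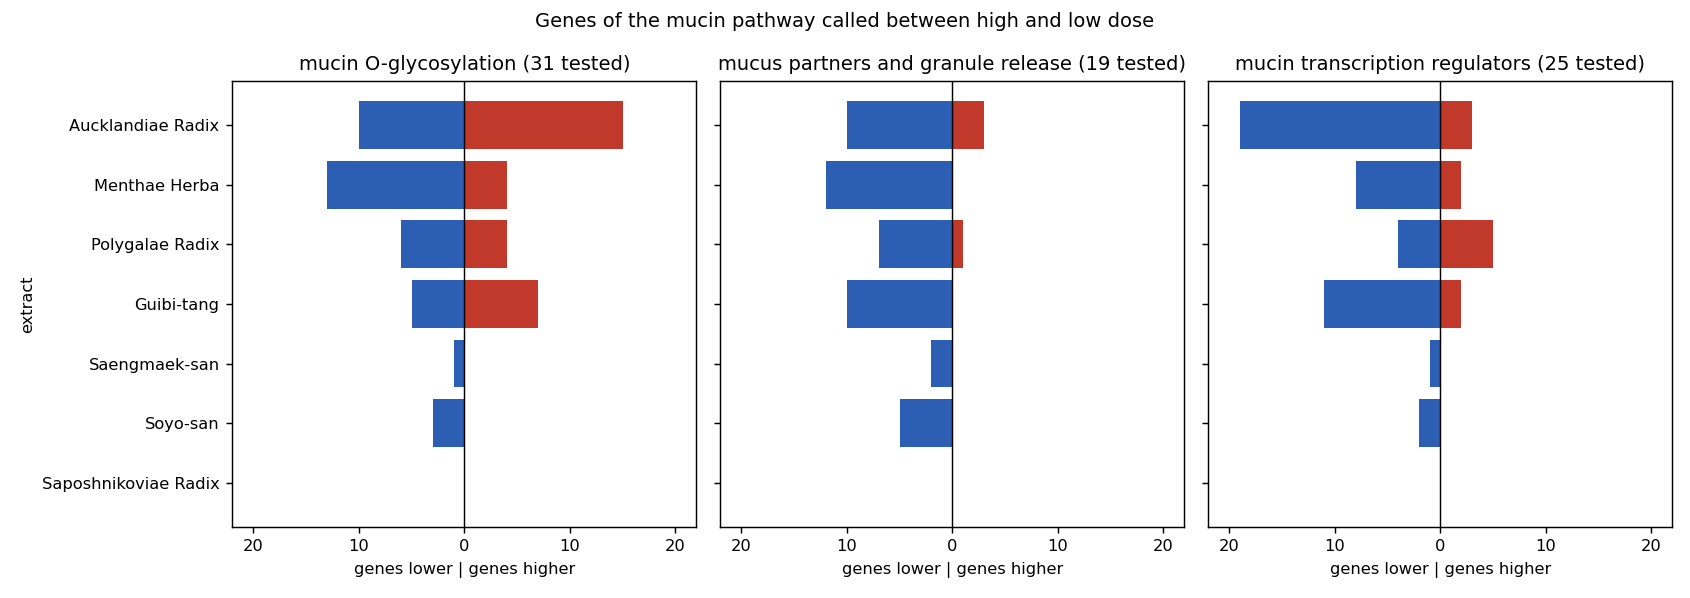
Number of genes called higher (right, red) and lower (left, blue) at high against low dose in 3 pathway lists for 7 extracts. For Aucklandiae Radix, where 58.7% of all genes were called, 19 regulators are lower and 3 higher, and 10 O-glycosylation genes are lower and 15 higher.

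Other mucin genes added 5 tested members, of which only MUC16 and MUCL3 are described here, at high against low dose. In these comparisons 58.7% of all genes were called with Aucklandiae Radix, 23.5% with Menthae Herba and 29.4% with Polygalae Radix. MUC16, a membrane mucin, was at 4.77 ± 0.918 CPM with Aucklandiae Radix at high dose, against 1.12 ± 0.308 CPM at low dose (log2 2.08, SE 0.33, adjusted p = 7.81e-07). It had 0.148 ± 0.0942 CPM with Menthae Herba at high dose, against 1.17 ± 0.0975 CPM (log2 -2.94, SE 0.45, adjusted p = 2.34e-06). MUCL3, a mucin-like membrane gene, likewise rose with Aucklandiae Radix (log2 1.67, SE 0.19) and fell with Menthae Herba (log2 -0.68, SE 0.19) and with Polygalae Radix (log2 -0.89, SE 0.23).

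Over the 25 group means, the profile most like that of MUC2 among 10558 genes was that of SEMA4D (Pearson r = 0.961 on log2 CPM), followed by PTCH1, FCGBP, TGFBR3 and PLEKHH1 (r = 0.949 to 0.944). For MUC5AC the 5 nearest were CLSTN1 (r = 0.934), AGRN, TGOLN2, SLC44A2 and HSPG2, and for MUC13 they were TMPRSS2 (r = 0.984), SESN1, ANXA13, LINC00261 and PRLR. LINC00261 had a group mean of 0.200 CPM with Aucklandiae Radix at high dose, against 15.6 CPM in the vehicle. MUC1 had no close match, its highest r being 0.644 (ATP2A3). Its profile rests on 14 to 57 counts per library, and the part of such low counts in this r was not tested. These values describe profiles across groups that share library sets and extracts.

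Okbyeongpung-san, with 1 library per dose, gives values only. From low to high dose MUC2 was at 18.1, 16.7 and 15.1 CPM, MUC20 at 63.6, 56.4 and 46.1 CPM, MUC3A at 26.3, 24.1 and 20.5 CPM and MUC17 at 6.90, 7.15 and 8.47 CPM. Its high-dose values of MUC20, MUC13, MUC3A, MUC2, MUC1 and MUC4 lay below the 3 vehicle libraries and that of MUC17 above them. There was no check by replicates. MUC2 was only just below, at 15.1 CPM, against a vehicle minimum of 15.6 CPM, and MUC1 and MUC4 rest on few reads. MUC5AC, MUC5B and MUC12 lay within the vehicle range.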

How the data were processed

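RNA-seq of HT29 cells was made from directional mRNA libraries with 100 bp paired-end reads on an MGI sequencer, per the labels' protocols. The authors deposited 1 table of expected counts, with a row per gene and 60 libraries. The authors used Trim Galore 0.6.5, STAR 2.7.3a and RSEM 1.3.3 with hg38, per the submitters' processing notes. Neither an annotation release nor a strand setting is given in the sources used here. Expected counts spread reads that match several genes over them, which matters for MUC20 and its copy. Of the values 10.04% were not whole, and all were rounded. Totals ran from 17079221, in the outlying library, to 36796414.

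Groups came from the labels. The fit used edgeR 4.0.16 in R 4.3.3: genes passing filterByExpr, TMM scaling, and the quasi-likelihood test with 1 term per group over 56 libraries in 22 groups, with 34 residual degrees of freedom. Okbyeongpung-san, without replicates, and 1 library at the low dose of Saposhnikoviae Radix, which stood apart from every other, were left out. P-values were Benjamini-Hochberg adjusted over 16978 genes in each of 31 comparisons. All adjusted p-values in the text are from this model unless another tool is named. CPM was taken on the TMM-scaled totals. Per-length levels used union exon lengths of GENCODE 29, held by 57055 genes. The scripts were tested on simulated counts. The members and gene lists were chosen with earlier results of these data known. All 10 members are named. Other genes named are among the 4 largest called rises and 4 largest called falls of each list per comparison. Nearest profiles are the 5 highest Pearson correlations of group-mean log2 CPM among genes of at least 5 CPM. Alternatives were DESeq2 1.42.0, its size factors, no filter on low counts, fits on the 2 groups compared, a replicate block, the outlying library kept, and each library left out.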

Additional observations from a re-analysis of the deposited data

Results flagged for a closer look

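The library labelled Saposhnikoviae Radix low replicate 2, which entered no comparison of the main fit, held 3 mucins above the highest of the 3 vehicle libraries. MUC1 was at 8.88 CPM there, against 1.57 CPM as the vehicle maximum, MUC12 at 21.7 CPM, against 11.9 CPM, and MUC5B at 2.18 CPM, against 2.01 CPM. Other mucins were low in the same library: MUC17 had 1 count (0.0837 CPM), MUC13 33.6 CPM and MUC3A 4.35 CPM, against at least 3.37, 96.4 and 21.3 CPM in the 18 other low-dose libraries of the tested extracts. MUC2 at 9.71 CPM, MUC5AC at 114 CPM and MUC20 at 44.4 CPM also lay below those 18 libraries. This library had the lowest total of the table, 17079221 expected counts. No group held 4 or more samples, so no test for a single outlying sample within a group was made.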

How the results depend on the processing

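Of 85 called mucin differences, 38 were called under every alternative setting, 56 with every library left out in turn, and 37 under both; none reversed. Keeping the outlying library lost 46. Counts of called mucins with it (value without it in parentheses) were, against the vehicle at high dose, Menthae Herba 5 (8), Polygalae Radix 3 (5), Guibi-tang 3 (5), Soyo-san 1 (3), Saengmaek-san 0 (4) and Saposhnikoviae Radix 0 (1); at medium dose 0 for Aucklandiae Radix (3), Polygalae Radix (3), Menthae Herba (2) and Guibi-tang (1); at low dose Saposhnikoviae Radix 2 (1) and Soyo-san 0 (1). High against low dose gave Menthae Herba 5 (9), Guibi-tang 2 (5), Polygalae Radix 1 (4), Saposhnikoviae Radix 1 (0), Soyo-san 0 (2) and Saengmaek-san 0 (1), and set mates 3 (5) for Polygalae Radix minus Aucklandiae Radix and 0 (3) for Guibi-tang minus Saengmaek-san. MUC17 against the low dose was then not called with Polygalae Radix (adjusted p = 0.0658) or Guibi-tang (adjusted p = 0.262). With Guibi-tang it was not called against the vehicle either (adjusted p = 0.257). Fits on the 2 groups compared, with fewer samples, lost 19 calls and gave Polygalae Radix high 3, Saengmaek-san high 1, Soyo-san high 1, Aucklandiae Radix medium 1 and 0 for Saposhnikoviae Radix high and low, Soyo-san low, Menthae Herba medium and Guibi-tang medium, all against the vehicle, and 2 each for Saengmaek-san and Saposhnikoviae Radix high against low. Without a filter on low counts 1 call was lost, and the counts were Aucklandiae Radix medium 5, Saengmaek-san medium 4, Saengmaek-san high against low 4, Saposhnikoviae Radix high 3, 2 each for Guibi-tang medium, Polygalae Radix low, Saengmaek-san low, Saposhnikoviae Radix low, Soyo-san low and Saposhnikoviae Radix high against low, and 1 each for Guibi-tang low, Menthae Herba low, Saposhnikoviae Radix medium and Soyo-san medium. DESeq2 lost 2 calls and gave 2 for Saengmaek-san and 1 for Saposhnikoviae Radix, high against low, and its size factors lost 1. The median log2 shift over the mucins between scalings, taken per comparison, was largest for Aucklandiae Radix at high dose against the vehicle, at 0.0257. As a median, it does not bound the shift of a single gene. Same-numbered replicates correlated at -0.0995 to 0.159, so the numbers were not taken to pair samples; the fit with a replicate block lost no call and gave Saengmaek-san medium 2, Polygalae Radix low 1 and Saposhnikoviae Radix high against low 1. With each library left out, counts ranged over 0 to 2 (Guibi-tang medium), 0 to 3 (Menthae Herba medium), 2 to 5 (Saengmaek-san high), 0 to 3 (Saengmaek-san medium), 0 to 1 (Saengmaek-san low), 0 to 2 (Saposhnikoviae Radix high), 0 to 1 (Saposhnikoviae Radix medium and low), 0 to 1 (Soyo-san low) and 1 to 1 (Soyo-san high against low). For Menthae Herba, high against low, the range was 6 to 8, against 9 with all libraries. Without vehicle replicate 1, 14 of 43 called differences from the vehicle were lost, without replicate 3, 8, and without replicate 2, 0. The cause of these shifts was not tested. Depth limits MUC4, MUC5B and MUC1 most.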
